A study of Mus musculus with 16 samples.

Results

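Lines 2883, 2696, 2641 and 2869 were grown from mouse acute leukaemias of T-cell precursors (T-ALL), and their 4 parental libraries, of 16 libraries in all, were compared with each other. The members were taken by label, as every parental culture of a Mcm2cre/cre line. All 4 lines carry the Mcm2cre/cre genotype, a Cre insertion at Mcm2 that lowers this replication helicase subunit, and each was profiled as a PBS-treated culture of a thymic precursor T-cell leukaemia. The other libraries are 10 resistant derivatives of these lines (5 of 2883, 2 of 2696, 1 of 2641 and 2 of 2869), each selected with cytarabine, etoposide, methotrexate, prednisone or vincristine, and 2 libraries of the SCL/LMO1 transgenic line 7298. Each line is 1 culture with 1 library, so nothing measured between the parental libraries can be tested. A derivative descends from its parental culture and is not an independent tumour; p-values below measure the spread between derivative cultures.

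T-ALL arises from thymocytes arrested while they rearrange their T cell receptor genes, and Notch signalling drives most cases. The disease in mice and humans commonly loses tumour suppressors such as Cdkn2a and, in mice, Ikzf1 or the E protein genes. D-type cyclins push cells through G1, while the products of Cdkn2a, p16Ink4a and p19Arf, hold the cell cycle back through the Rb and p53 pathways. Each tumour carries the receptor rearrangements of the cell it grew from.

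Values are CPM, a gene's reads scaled to a common library total. A gene was called line-high when its log2(CPM + 1) in 1 parental library was at least 2 above each of the other 3, with at least 10 CPM in that library. A line-low gene was at least 2 below each of the other 3, all of which had at least 10 CPM. These rules describe 1 library each. Whether a difference was carried on was then tested in the 10 derivatives alone, as the derivatives of a line minus the equally weighted mean of the other 3 lines, with adjusted p under 0.05 over 13184 genes. Contrasts are log2(CPM + 1) differences with the standard error (SE) of the fit.

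The 4 parental libraries held 12142000 to 13498000 reads each, and the derivatives 14066000 to 18956000. T lineage genes were expressed in all 4 lines: the T cell receptor signalling chain Cd3d was at 274 CPM in 2883, 426 in 2696, 306 in 2641 and 217 in 2869, and the recombinase gene Rag1 was at 379 CPM in 2696 and 1302 CPM or more in the other lines. Mcm2 was at 96.8, 76.3, 82.3 and 114 CPM. Few markers of other cell types have a row in the table (2 of 10 for B cells, 3 of 14 myeloid, 2 of 13 natural killer, 2 of 9 erythroid and 3 of 13 stromal). The summed stromal markers differed between lines, at 67.9 CPM in 2883, 446 in 2696, 383 in 2641 and 49.4 in 2869, most of it the growth factor receptor gene Pdgfrb and the endothelial and leukocyte gene Pecam1. The myeloid markers summed to 34.8 CPM in 2696 and 7.25 to 12.5 CPM in the other lines, and the B-cell markers to 37.4 to 168 CPM, nearly all Ighm. The natural killer markers summed to 75.8 CPM in 2696 and 95.9 CPM in 2641, nearly all the cytokine receptor gene Il2rb, and to 4.79 and 2.68 CPM in 2883 and 2869. The part of these markers in the results was not tested. In bulk RNA, fewer cells of a type and less RNA per cell cannot be told apart.

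Line 2696 stood furthest from the others. Over 10392 genes, Pearson's r of log2(CPM + 1) between parental libraries, given as a description across genes, was 0.751 between 2883 and 2696, 0.777 between 2696 and 2869 and 0.807 between 2696 and 2641, against 0.833 to 0.878 among the other 3 lines. Of all 13474 genes, 633 were line-high or line-low in at least 1 line (4.7%). Line 2696 had 260 line-high (1.93%) and 59 line-low genes (0.438%), line 2883 had 97 (0.72%) and 18 (0.134%), line 2641 had 37 (0.275%) and 39 (0.289%), and line 2869 had 26 (0.193%) and 107 (0.794%). The balance therefore differed between lines, with line-high genes in excess in 2696 and 2883 and line-low genes in excess in 2869. The gene nearest the threshold from inside was B130055M24Rik in 2883, with a gap of 2.003 to the next library, and from outside Gstm1 in 2641, with a gap of 1.99.

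**Figure D1:**
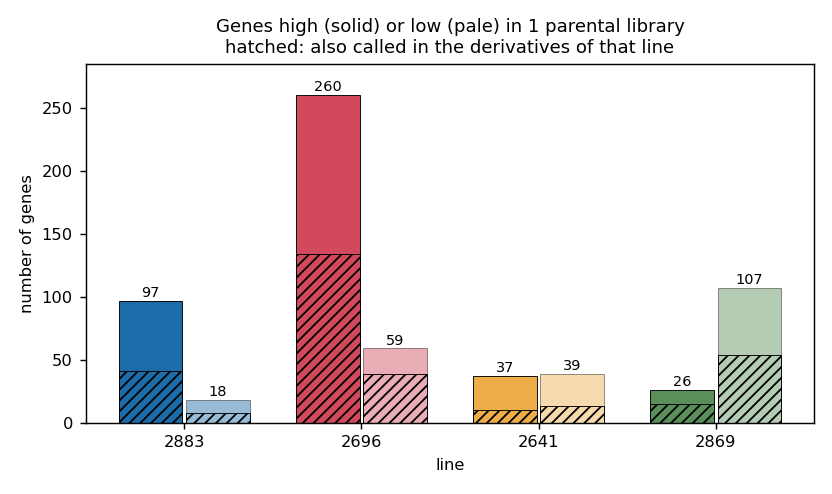
Numbers of line-high (solid bars) and line-low (pale bars) genes in the parental library of each line, with the hatched part called in the same direction in the derivatives of that line (5, 2, 1 and 2 libraries for 2883, 2696, 2641 and 2869). Line 2696 has the most line-high genes (260) and line 2869 the most line-low genes (107).

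Many of these differences were seen again in the derivatives. An F test over the 4 lines called 1049 of 13184 genes (7.96%). In derivatives of 2696, 388 genes were called higher (2.94% of genes tested) and 252 lower (1.91%), and among the line-high genes of its parental library 134 of 258 tested were called higher and among the line-low genes 39 of 59 lower. For 2883 the background was 374 higher (2.84%) and 181 lower (1.37%), and 41 of 94 line-high and 8 of 18 line-low genes were called in the same direction. For 2869 it was 230 higher (1.74%) and 347 lower (2.63%), and 15 of 26 line-high and 54 of 107 line-low genes were called. For 2641, with 1 derivative, it was 48 higher (0.364%) and 50 lower (0.379%), and 10 of 36 line-high and 13 of 39 line-low genes were called. No line gene was called in the opposite direction in its line. The filter, 1 CPM in 2 of 14 libraries, counts the parental libraries that chose these genes. Line-high genes under 1 CPM in every other library were not tested, which left 94 of 97 in 2883, 258 of 260 in 2696 and 36 of 37 in 2641. Some passed only through their own line, among them Fndc1 in 2696, Dsg2, Plekhh2, Rap2b and Trdc in 2641, and Atad1 and Prdm16 in 2869. For these the filter and the call draw on the same libraries. Counted instead as every derivative of the line lying beyond every other derivative, 179 of 258 line-high genes of 2696 were above, against 7.71% of all genes tested, and 49 of 59 line-low genes were below, against 5.5%. For 2883 there were 42 of 94 above, against 3.55% of all genes tested, and 9 of 18 below, against 1.53%. For 2641 there were 20 of 36 above, against 8.57%, and 31 of 39 below, against 12.3%. For 2869 there were 18 of 26 above, against 5.74%, and 64 of 107 below, against 7.37%. Quantile normalization changed the balance for 2883 to 323 higher and 308 lower. The counts also depend on single derivatives: the F test called 604 genes without the etoposide-resistant derivative of 2696 and 682 without its vincristine-resistant one. With drug terms in the fit, 2 genes were called higher and 0 lower in 2641 (1499 at an unadjusted p under 0.05, both directions), and each of the 14 single-gene contrasts followed and called for this line missed the threshold (adjusted p 0.0567 to 0.279).

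Line 2883 expressed Cdkn2a, whose products p16Ink4a and p19Arf restrain the cell cycle. The gene (chromosome 4, 89274471 to 89294654, mm10) was at 139 CPM in 2883, against no read in 2696 and 2869 and 1.14 CPM (15 reads) in 2641. The 5 derivatives of 2883 held 108, 120, 126, 131 and 150 CPM, and none of the 5 derivatives of the other lines had a read. The libraries of 2883 and those of the other lines did not overlap, and the contrast in the derivatives was 6.98 ± 0.18 (SE, adjusted p = 3.7e-07). Cdkn2b, the neighbouring inhibitor gene, was at 3.55 CPM in parental 2883 and 2.27 to 3.32 CPM in its derivatives, with no read in the other 3 parental libraries. Its contrast was 1.88 ± 0.22 (adjusted p = 0.00198). Cdkn2b passed the filter only through libraries of 2883. Cdkn2a passed it through these too, with parental 2641 as the only other library at 1 CPM or more. For both genes the filter and the call draw on the same libraries. The nearest protein-coding genes on the lower-coordinate side were present in every line: Mtap, an enzyme of methionine salvage, was at 142 CPM in 2883 and 102 to 220 CPM in the other lines, and Klhl9 was at 168 CPM in 2883 and 141 to 178.5 CPM in the others. Cdkn2a has 2 separate starts, an upstream one for p19Arf and an inner one for p16Ink4a, and a gene-level count does not say which was used. The bases before each start are printed because they differ in CG content (RefSeq, GRCm38.p6, minus strand, 5′ to 3′, CG in capitals): 35 CG in 215 bases before the upstream start, where bases that the table counts as gene were left out, and 7 CG in 250 bases before the inner start.
Cdkn2a, upstream start, chr4:89294655-89294869: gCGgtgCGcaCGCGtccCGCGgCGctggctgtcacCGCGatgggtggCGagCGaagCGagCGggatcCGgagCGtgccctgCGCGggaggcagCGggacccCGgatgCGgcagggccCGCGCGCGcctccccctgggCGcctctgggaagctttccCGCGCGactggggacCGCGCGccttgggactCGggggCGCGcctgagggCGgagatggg
Cdkn2a, inner start, chr4:89282193-89282442: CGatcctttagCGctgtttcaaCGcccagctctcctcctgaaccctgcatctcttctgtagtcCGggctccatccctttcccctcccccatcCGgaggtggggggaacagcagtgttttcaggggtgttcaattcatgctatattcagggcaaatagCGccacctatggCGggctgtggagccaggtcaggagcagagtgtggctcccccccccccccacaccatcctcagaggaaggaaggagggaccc

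The 31 T-ALL tumour suppressors on the list all have a row in the table, and each line had its own combination of silent members. Tcf3, which encodes the E proteins E12 and E47, had no read in parental 2883 and 2869 and was at 139 CPM in 2696 and 112 CPM in 2641. None of the 5 derivatives of 2883 or the 2 of 2869 had a Tcf3 read, whereas those of 2696 were at 181 and 196 CPM and that of 2641 at 120 CPM. The contrast was -4.82 ± 0.19 in 2883 (adjusted p = 8.3e-06) and -4.82 ± 0.24 in 2869 (adjusted p = 1.8e-05). Tcf3 is split between pairs of lines and so is neither line-high nor line-low.

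**Figure D2:**
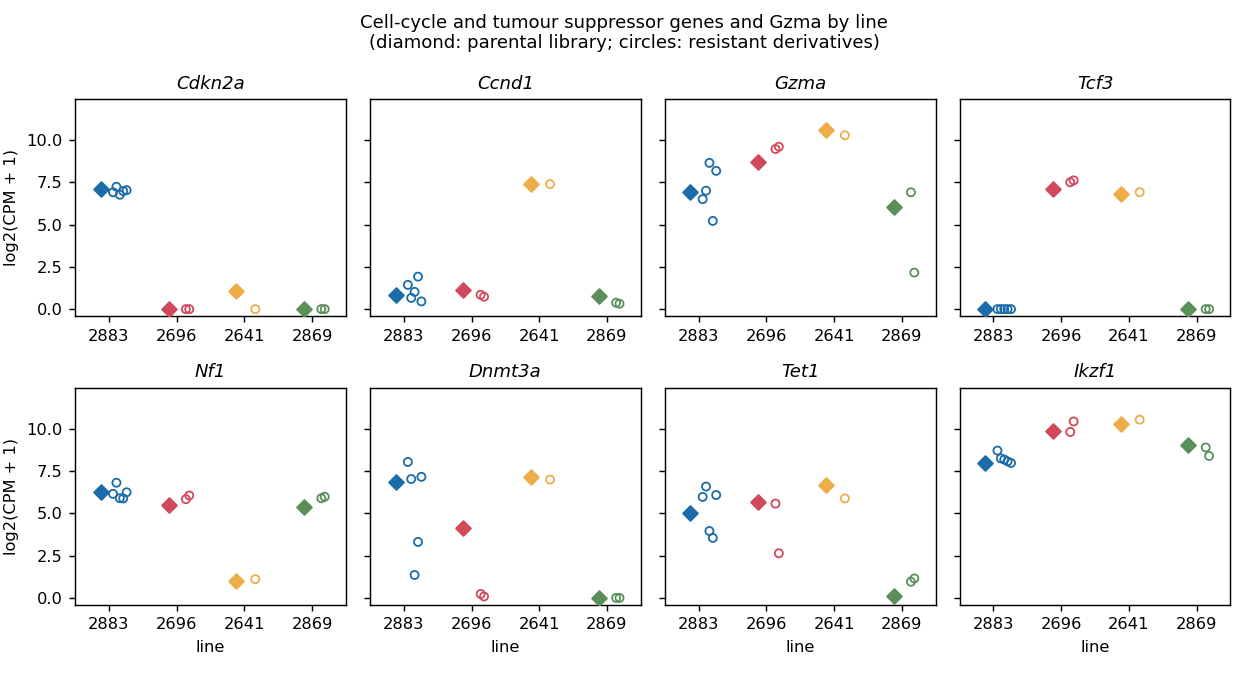
Level in each library, as log2(CPM + 1), of 8 genes by line, with the parental library as a filled diamond and each derivative as an open circle. Cdkn2a is present in the 6 libraries of 2883, Ccnd1 in the 2 libraries of 2641, and Tcf3 is at 0 in all libraries of 2883 and 2869.

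Nf1, which encodes the Ras inhibitor neurofibromin, was line-low in 2641, at 0.986 CPM (13 reads), against 75.4 CPM in 2883, 43.7 in 2696 and 41.05 in 2869. The derivative of 2641 was at 1.17 CPM and the other 9 derivatives at 56.4 to 112 CPM, with no overlap. The contrast was -4.92 ± 0.33 (adjusted p = 0.000234). Dnmt3a, a DNA methyltransferase, had no read in 2869 and was at 116 CPM in 2883, 16.5 in 2696 and 139 in 2641. It was not stable within lines: the derivatives of 2696 held 0.180 and 0.0664 CPM, and those of 2883 ranged over 1.57, 8.96, 130, 142 and 262 CPM. The contrast in 2869 was -4.18 ± 1.62 (adjusted p = 0.2085), so the low level in this line was not called. Tet1, a DNA demethylase, was at 0.0815 CPM (1 read) in 2869, against 32.05 to 100.2 CPM in the other parental libraries, and its contrast of -4.02 ± 0.97 also missed the threshold (adjusted p = 0.0547). Ikzf1, the zinc finger factor Ikaros, was present in every line and lowest in 2883, at 255 CPM, against 920 CPM in 2696, 1225 in 2641 and 519 in 2869. The derivatives of 2883, at 252 to 420 CPM, overlapped those of 2869, at 336 and 477 CPM, and the contrast in 2883 was -1.53 ± 0.20 (adjusted p = 0.00326). Over the list, 3 members were called higher and 3 lower in 2883, 4 and 1 in 2696, 2 and 3 in 2641, and 2 and 4 in 2869, with list medians of 0.07, 0.24, -0.22 and -0.15 in the same order. The medians over all genes tested were 0.04, -0.02, -0.01 and -0.04. Of all genes tested, 2.84% were called higher and 1.37% lower in 2883, 2.94% and 1.91% in 2696, and 1.74% and 2.63% in 2869. In 2641 these shares were 0.364% and 0.379%.

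Table rows around Tcf3 were at 0 together. Next to Tcf3 on chromosome 10, the respiratory chain gene Uqcr11 also had no read in 2883 and 2869 and was at 52.4 CPM in 2696 and 76.8 CPM in 2641. Mbd3, a chromatin repressor subunit gene, and Mex3d, an RNA-binding protein gene, had no read in 2883 but were at 2.304 and 7.045 CPM in 2869. On the other side Rexo1 was present in all 4 lines, at 44.2 CPM in 2883 and 30.8 CPM in 2869, against 68.4 CPM in 2696 and 75.6 CPM in 2641. All 5 derivatives of 2883 lacked reads for Mex3d, Mbd3, Uqcr11 and Tcf3, and the contrast of Uqcr11 was -3.92 ± 0.20 in 2883 (adjusted p = 1.7e-05) and -3.92 ± 0.25 in 2869 (adjusted p = 5.5e-05). DNA was not analysed here, and lost copies and silenced genes cannot be told apart. These neighbours were looked up after the values of Tcf3 were seen.

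**Figure D3:**
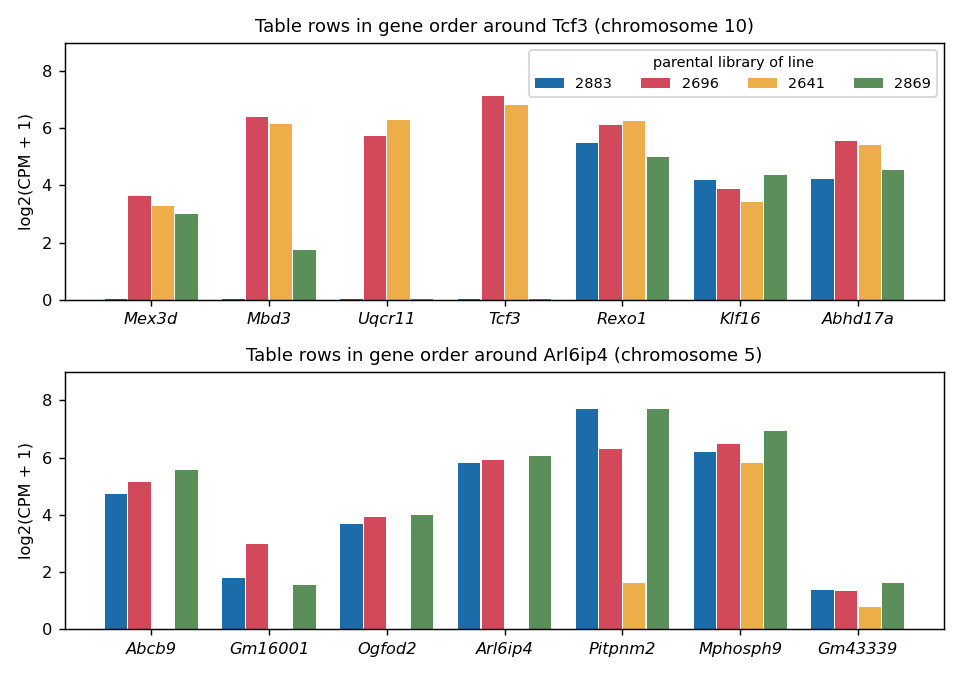
Level in the 4 parental libraries, as log2(CPM + 1), of consecutive table rows around Tcf3 and Arl6ip4, in gene order and not to scale; no bar means no read or close to none. Tcf3 and Uqcr11 are missing in 2883 and 2869, and Abcb9 to Arl6ip4 are missing in 2641.

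A search for runs of neighbours, over genes with at least 5 CPM in 1 parental library, found 11 runs of 3 or more in a row that were low or high in 1 line. The 1 low run of 2641 lay on chromosome 5, from 124112297 to 124249761, and held Ogfod2, the splicing-associated gene Arl6ip4 and Pitpnm2. Ogfod2 and Arl6ip4 had no read in 2641 and were at 11.6 to 15.1 CPM and 55.1 to 66.0 CPM in the other lines. Pitpnm2 was at 2.04 CPM in 2641 and 78.0 to 208 CPM in the others. Abcb9, a lysosomal transporter gene on the same stretch, had no read in 2641 either and was at 25.3 to 45.9 CPM in the others. All 4 were low again in the derivative, with contrasts of -3.92 ± 0.35 (adjusted p = 0.000858) for Ogfod2, -5.56 ± 0.33 (adjusted p = 0.000112) for Arl6ip4, -5.83 ± 0.57 (adjusted p = 0.00145) for Pitpnm2 and -5.32 ± 0.46 (adjusted p = 0.000744) for Abcb9. On the log2(FPKM + 1) scale Pitpnm2 and Abcb9 were not called (adjusted p = 0.427 and 0.0945). The next gene, Mphosph9, was at 55.8 CPM in 2641 and 71.7 to 121 CPM in the others.

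Line 2869 had 4 low runs. On chromosome 12, Gphn, which encodes the scaffold protein gephyrin, had no read in 2869 and was at 36.4 to 50.2 CPM in the others, and its neighbour Mpp5 was at 11.9 CPM in 2869 and 55.9 to 69.8 CPM in the others. The derivatives of 2869 had no Gphn read and 13.1 and 20.3 CPM of Mpp5. The contrasts were -5.46 (adjusted p = 4.0e-05) for Gphn and -1.80 (adjusted p = 0.00252, and 0.0803 with drug terms) for Mpp5. Runs of zinc finger genes lay on chromosome 13 (Zfp759, Rsl1, Zfp458) and chromosome 7 (Zfp764, Zfp688, Zfp689). Of these, Rsl1, Zfp458, Zfp764, Zfp688 and Zfp689 had no read in parental 2869 and at most 0.0649 CPM in its derivatives, and were at 4.87 to 16.05 CPM in the other parental libraries. These families have near-identical members, and how shared reads were counted is not given in the sources used here. On chromosome 9 the spermatogenesis gene Mns1 had no read in 2869 and was at 73.2 to 157 CPM in the others, with no read in the derivatives of 2869, and its contrast was -6.42 ± 0.26 (adjusted p = 6.2e-06). Nedd4, a ubiquitin ligase gene on the same stretch, was at 3.56 CPM in 2869 and 443 to 866 CPM in the others, at 4.37 and 8.26 CPM in the derivatives of 2869 and 456 to 835 CPM in the other 8, which do not overlap. Rfx7, a transcription factor gene between Mns1 and Nedd4, was expressed in 2641 at 279 CPM, against 4.70 CPM in 2883, no read in 2696 and 0.0875 CPM in 2869. The derivative of 2641 held 293 CPM and the contrast was 7.43 ± 0.39 (adjusted p = 5.4e-05). High runs were found in 2696 (5 runs) and 2641 (1 run, of the interferon-inducible genes Ifi206, Ifi209 and Ifi208, which were at 8.215 to 22.95 CPM in the parental 2641 library and not called in 2641).

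Line 2641 was marked by Ccnd1, which encodes cyclin D1, a D-type cyclin that T cells normally do not use. Ccnd1 (chromosome 7, 144929931 to 144939926) was at 170 CPM in 2641, against 0.771 CPM in 2883, 1.18 in 2696 and 0.755 in 2869, a ratio of 188 to the mean of the other lines. Its derivative held 168 CPM and the other 9 derivatives 0.254 to 2.80 CPM. These ranges do not overlap, and the contrast was 6.64 ± 0.53 (adjusted p = 0.000528). Ccnd3, the D-type cyclin of thymocytes, was at 184 CPM in 2641 and 181 to 335 CPM in the others, and Ccnd2 was at most 0.976 CPM in every parental library. The table has 20 genes of a list of G1 cyclins, kinases and inhibitors, which also holds Rb1, Rbl1, E2f1, E2f2 and Mtap. Among them Ccnd1 alone was line-high in 2641 and Cdkn2a and Cdkn1c alone in 2883. Over all genes, 0.275% were line-high in 2641 and 0.72% in 2883. Cdkn1c, an imprinted inhibitor gene, was at 17.2 CPM in 2883 and at most 2.82 CPM in the others, but at most 6.83 CPM in the derivatives of 2883 (contrast 0.64 ± 0.58, not called).

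Dsg2, Plekhh2, Rap2b and Cldn4 were also line-high in 2641. Dsg2, a desmosomal cadherin gene, was at 109 CPM in 2641 with no read in the other 3 parental libraries and 116 CPM in the derivative of 2641, against at most 0.180 CPM in the other derivatives (contrast 6.82 ± 0.35, adjusted p = 5.4e-05). Plekhh2, Rap2b, which encodes a Ras-related GTPase, and Cldn4, which encodes claudin 4, were at 21.2, 16.6 and 16.5 CPM in 2641 with no read in the other 3 parental libraries, and all 3 were called higher in the derivative. Xist, the RNA that silences 1 X chromosome in female cells, was at 201 CPM in 2641 and 2233 to 3613 CPM in the others. It changed within lines: the derivatives of 2883 ranged over 0.363 to 3600 CPM, those of 2869 over 0.0639 to 5048 CPM and those of 2696 over 1.51 to 3046 CPM, so no line contrast was called. With 1 derivative, a contrast for 2641 assumes that this line varies like the others.

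Gzma, which encodes the protease granzyme A, did not separate 1 line. It was at 1563 CPM in 2641, 420 CPM in 2696, 120.1 CPM in 2883 and 64.2 CPM in 2869, and the gap between 2641 and 2696 was under the threshold. The derivatives held 1249 CPM in 2641, 710 and 778 CPM in 2696, 36.4 to 402 CPM in 2883 and 3.49 and 119.7 CPM in 2869. The derivatives of 2883 and 2869 overlapped, and no contrast passed the threshold: 3.22 ± 1.55 (adjusted p = 0.602) for 2641 and -4.44 ± 1.21 (adjusted p = 0.0807) for 2869. Of the 9 cytotoxic granule genes in the table, 3 were called higher in derivatives of 2696, against 2.94% of all genes tested, and none was called in the other lines. The list median was 2.22 in 2696, -1.01 in 2883, -1.5 in 2641 and -0.37 in 2869, against -0.02, 0.04, -0.01 and -0.04 over all genes tested. In 2696 the granule membrane gene Nkg7 was at 41.5 CPM, the pore-forming perforin gene Prf1 at 11.4 CPM and the granzyme B gene Gzmb at 5.57 CPM. Nkg7 was at most 0.08145 CPM in the other 3 parental libraries, Prf1 at 0.338 to 3.12 CPM, and Gzmb had no read there. The derivatives of 2696 held 42.0 and 20.0 CPM of Nkg7 and those of the other lines at most 11.7 CPM (contrast 4.44 ± 0.84, adjusted p = 0.0188). This call rests on both derivatives of 2696, since the adjusted p was 0.222 without the etoposide-resistant and 0.0934 without the vincristine-resistant one (0.0907 with drug terms).

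Several T cell surface receptor genes were line-high in 2696. Cd6, an adhesion and inhibitory receptor gene, was at 44.9 CPM in 2696, against 0.0906 CPM in 2883, 0.459 in 2641 and 0.156 in 2869. The derivatives of 2696 held 56.0 and 51.8 CPM and the other 8 at most 6.70 CPM, and the contrast was 5.28 ± 0.67 (adjusted p = 0.00245). Cd5, a related receptor gene that marks receptor signal strength in thymocytes, was at 40.2 CPM in 2696 and 0.230 to 1.44 CPM in the others, with 29.2 and 27.6 CPM in its derivatives and at most 3.86 CPM in the rest (contrast 3.57 ± 0.55, adjusted p = 0.00702). Without the etoposide-resistant derivative of 2696 its adjusted p was 0.089, and without the vincristine-resistant one 0.0671 (0.0589 with drug terms). With a pseudocount of 0.1 CPM it was 0.06. Cd7 and Cd44 were also line-high in 2696, at 16.5 and 17.1 CPM. The Cd7 call (adjusted p = 0.0488) was lost with drug terms (0.101), without either derivative of 2696 (0.284 each), and without either derivative of 2869, that of 2641, or the etoposide-resistant or methotrexate-resistant one of 2883 (0.0568 to 0.095), and Cd44 was not called. The Cd7 call was also lost on the log2(FPKM + 1) scale (0.0652), with no filter (0.0629) and with quantile normalization (0.0827). Of the 23 thymocyte surface genes, 3 were called higher in 2696 and none lower, against 2.94% and 1.91% of all genes tested. The list median was 0.35, against -0.02 over all genes tested. In 2869, 1 of them was called higher and 4 lower, with a list median of -0.6 against -0.04, and in 2883 and 2641 none was called. Shares over all genes tested were 1.74% higher and 2.63% lower in 2869. The co-receptor gene Cd8a was line-low in 2696, at 23.9 CPM against 114 to 312 CPM, but the derivatives overlapped and it was not called.

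Spi1, which encodes PU.1, a factor of early T and myeloid progenitors, was at 19.4 CPM in 2696 with no read in the other 3 parental libraries. Its derivatives of 2696 held 20.1 and 24.4 CPM and the other 8 at most 1.27 CPM, and the contrast was 4.44 ± 0.40 (adjusted p = 0.000314). The myeloid marker Itgam was at 33.1 CPM in 2696 and 6.93 to 11.4 CPM in the other parental libraries. Fcer1g, another myeloid marker, which encodes a signalling chain of Fc receptors, was at 0.465 CPM in parental 2696 and at most 0.0906 CPM in the others, with 5.48 and 3.32 CPM in derivatives of 2696 and at most 0.183 CPM in the other 8 (contrast 2.29 ± 0.30, adjusted p = 0.00296). Fcer1g passed the filter only through the 2 derivatives of 2696, so for it the filter and the call draw on the same libraries. The part of these markers in the Spi1 result was not tested. Runx3, a factor of cytotoxic T cells, was at 66.8 CPM in 2696 and at most 3.93 CPM in the others. Its derivatives of 2696 held 66.6 and 35.3 CPM, those of 2869 reached 17.6 CPM, and the call (contrast 4.17 ± 0.98, adjusted p = 0.0466) was lost without 1 derivative of 2696 (adjusted p = 0.367 and 0.193) and without any but the methotrexate-resistant of the 5 derivatives of 2883 (0.0699 to 0.074), and with drug terms (0.21). The Runx3 call was also lost with a pseudocount of 0.1 CPM (adjusted p = 0.147) and with no filter (0.06). Of 22 T-lineage transcription factor genes, 4 were called higher and 1 lower in 2696, against 2.94% and 1.91% of all genes tested. The list median was 0.75, against -0.02 over all genes tested. The counts were 0 and 3 in 2883 (median 0.05), 1 and 0 in 2641 (0.02), and 1 and 4 in 2869 (-0.73). Shares over all genes tested were 2.84% higher and 1.37% lower in 2883, 0.364% and 0.379% in 2641, and 1.74% and 2.63% in 2869. Itga4, the integrin alpha 4 gene, was at 170 CPM in 2696 and at most 2.60 CPM in the others, with 35.6 and 49.2 CPM in derivatives of 2696 and at most 3.605 CPM in the rest (contrast 4.91 ± 0.52, adjusted p = 0.000825). Of 20 homing and adhesion receptor genes, 5 were line-high in 2696, among them Itga4, Itgae, Itgb7 and Cd44, against 1.93% of all genes. In its derivatives 2 were called higher, against 2.94% of all genes tested, and 2 lower, against 1.91%, with a list median of 0.59 against -0.02.

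**Figure D4:**
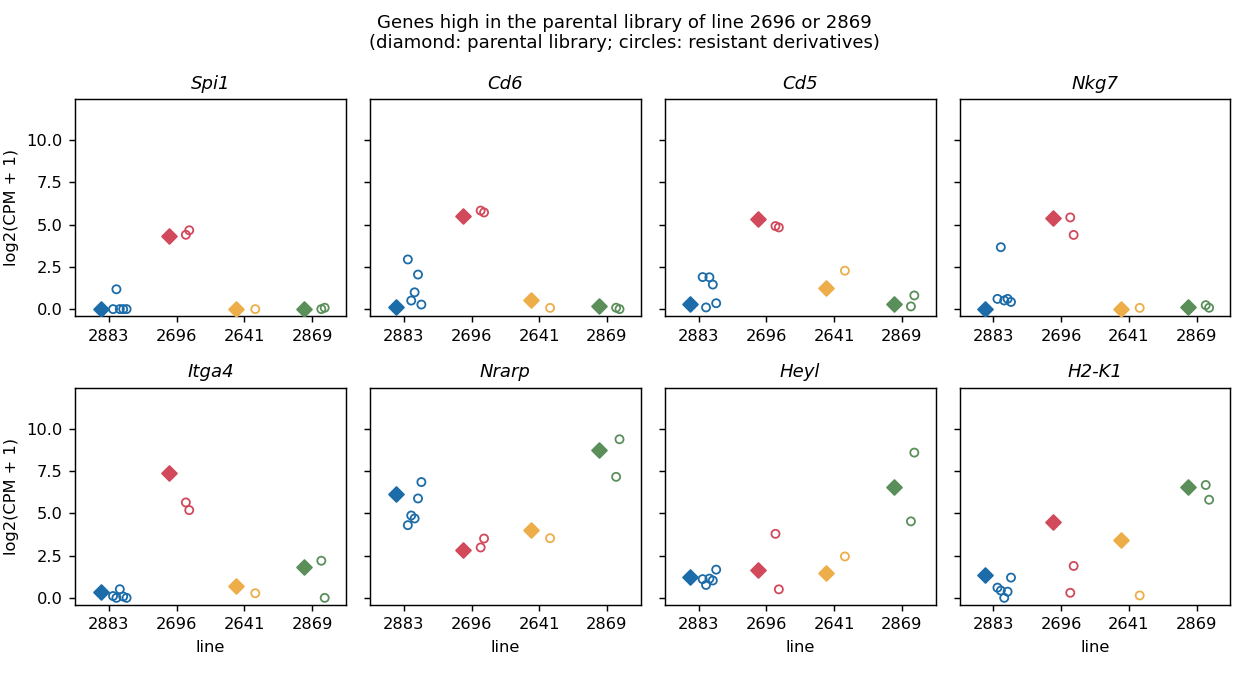
Level in each library, as log2(CPM + 1), of 8 genes that are line-high in 2696 (Spi1, Cd6, Cd5, Nkg7, Itga4) or 2869 (Nrarp, Heyl, H2-K1), with the parental library as a filled diamond and derivatives as open circles. Spi1 in the 3 libraries of 2696 lies between 19.4 and 24.4 CPM and in the other 11 at 1.27 CPM or less.

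The line-high genes of 2696 with the widest gaps were of several kinds. Mpzl2, an epithelial and thymic adhesion gene, was at 998 CPM in 2696 and at most 2.12 CPM in the others. It was at 1591 and 680.5 CPM in its derivatives and at most 23.25 CPM in the other 8 (contrast 7.84 ± 1.09, adjusted p = 0.00413, and 0.0833 without the etoposide-resistant derivative of 2696). Fndc1, a fibronectin domain gene, was at 108 CPM in 2696 and at most 0.0828 CPM in the others (contrast 4.96 ± 0.30, adjusted p = 4.0e-05). Igfbp4, which encodes a binding protein of insulin-like growth factors, was at 88.9 CPM in 2696 and at most 0.459 CPM in the others (contrast 3.72 ± 0.32, adjusted p = 0.000275). Nfib, a transcription factor gene, was at 67.9 CPM with no read in the others (contrast 4.01 ± 0.52, adjusted p = 0.00296, and 0.0563 with drug terms). Hypoxia-linked Car9, carbonic anhydrase 9, was at 47.8 CPM in 2696 and at most 0.526 CPM in the others (contrast 5.02 ± 0.59, adjusted p = 0.00166, and 0.0649 with drug terms). Of the 31 glycolysis and hypoxia genes, 2 were called higher in 2696 and none lower, against 2.94% and 1.91% of all genes tested. The list median was -0.25, against -0.02 over all genes tested. Dst was at 304 CPM in 2696 and at most 3.10 CPM in the others and was not called, and a derivative of 2883 reached 118 CPM. Wdfy4 was at 163 CPM in 2696 with no read in the others, but a derivative of 2883 held 103 CPM, and its call (adjusted p = 0.0275) was lost without either derivative of 2696 (0.195 and 0.221) or of 2869 (0.0615 and 0.0604), and with drug terms (0.207). Among line-low genes, the microtubule-binding gene Mapre2 was at 0.465 CPM in 2696 and 94.5 to 114 CPM in the others (contrast -6.44 ± 0.35, adjusted p = 2.7e-05), the Wnt co-receptor gene Ptk7 at 1.23 CPM and 73.5 to 120.5 CPM (contrast -5.57 ± 0.52, adjusted p = 0.000391, and 0.0513 on the log2(FPKM + 1) scale), and the talin gene Tln2 at 0.770 CPM and 41.35 to 94.8 CPM (contrast -5.79 ± 0.45, adjusted p = 0.000148).

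Line 2869 was higher in 2 Notch target genes. Nrarp, a feedback inhibitor of Notch that Notch itself induces, was at 423 CPM in 2869, against 69.4 CPM in 2883, 6.18 in 2696 and 15.2 in 2641. The derivatives of 2869 held 142 and 667 CPM and the other 8 held 6.935 to 115 CPM, with no overlap (contrast 4.24 ± 0.74, adjusted p = 0.0155, and 0.152 without the vincristine-resistant derivative of 2869). Heyl, a Hairy-related repressor gene, was at 93.6 CPM in 2869 and 1.33 to 2.22 CPM in the others, with 22.1 and 386 CPM in derivatives of 2869 and at most 12.9 CPM elsewhere (contrast 4.64 ± 1.07, adjusted p = 0.046). That call was lost without any 1 of the 5 derivatives of 2883 or the vincristine-resistant one of 2696 (adjusted p 0.0637 to 0.073), without the vincristine-resistant derivative of 2869, which has the highest level (0.308), and with drug terms (0.188). The Heyl call was also lost on the log2(FPKM + 1) scale (0.0881), with a pseudocount of 0.1 CPM (0.0543) and with no filter (0.0569). The other Notch genes did not follow. Of 18 in the table these 2 were called higher in 2869 and none lower, against 1.74% and 2.63% of all genes tested. The list median was 0.21, against -0.04 over all genes tested. Hes1 was at 32.5 CPM in 2869 and 24.8 to 94.0 CPM in the others. Hey1 was line-high in 2696, at 53.4 CPM, but its derivatives held 138 and 0.609 CPM and it was not called. Notch1 was at 322 CPM in 2869, 412 in 2696, 679 in 2641 and 1305 in 2883 and was not called in any line.

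H2-K1, a class I histocompatibility gene, was at 93.9 CPM in 2869, against 1.57 CPM in 2883, 21.2 in 2696 and 9.68 in 2641. The derivatives of 2869 held 102 and 55.0 CPM and the other 8 at most 2.72 CPM, and the contrast was 5.65 ± 0.50 (adjusted p = 0.00045). It was the 1 gene called among 29 interferon and class I genes in 2869, against 1.74% of all genes tested called higher and 2.63% lower. Similar class I genes may share its reads. Atad1, a mitochondrial protein extraction factor gene, was at 95.5 CPM in 2869 (1289 reads), with no read in the other 3 parental libraries, at least 408-fold higher against 3 reads per library. Its derivatives of 2869 held 92.8 and 78.5 CPM, the other 8 at most 0.0771 CPM, and the contrast was 6.42 ± 0.27 (adjusted p = 6.2e-06). Prdm16, a zinc finger factor gene, was at 50.3 CPM in 2869 with no read in the others (contrast 5.29 ± 0.28, adjusted p = 2.5e-05) and at 46.5 CPM in parental 7298. Vgll1, a TEAD cofactor gene, was at 98.5 CPM in 2869 and at most 0.173 CPM in the others (contrast 5.39 ± 0.71, adjusted p = 0.00423, with 0.0825 under drug terms and 0.07 on the log2(FPKM + 1) scale), and at 105 CPM in parental 7298. Of the 26 line-high genes of 2869, 10 were at 10 CPM or more in parental 7298, as were 91 of the 260 of 2696, 16 of the 97 of 2883 and 13 of the 37 of 2641. Over all 13474 genes, 9041 were at that level in parental 7298, a larger share. Of 7 Gimap genes, GTPase genes of lymphocyte survival, 3 were called lower in 2869 (Gimap1, Gimap5 and Gimap9), against 2.63% of all genes tested. The list median was -2.21, against -0.04 over all genes tested. In the parental libraries the low level was shared with 2883. The Gimap genes summed to 32.7 CPM in 2883 and 40.65 CPM in 2869, against 191 CPM in 2696 and 147 CPM in 2641. The sums in derivatives were 57.4 to 184.5 CPM in 2883 and 14.3 to 17.1 CPM in 2869.

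Of the 107 line-low genes of 2869, 49 had at most 3 reads, and 28 of these had at most 3 reads in both of its derivatives. Wls, which encodes the carrier that lets Wnt proteins leave the cell, had no read in 2869 and was at 100 to 202 CPM in the others, and its contrast was -6.93 ± 0.43 (adjusted p = 4.5e-05). Ctnna1, the alpha-catenin gene, had no read in 2869 and was at 57.7 to 141 CPM in the others, but its call (contrast -6.73 ± 1.10, adjusted p = 0.0107) was lost without either derivative of 2869 (adjusted p = 0.068 and 0.0965), with drug terms (0.0885) and on the log2(FPKM + 1) scale (0.0659). Not every silent gene stayed silent. Gnas, the stimulatory G protein alpha gene, was at 1.56 CPM in parental 2869 and 241 to 446 CPM in the others, while the derivatives of 2869 held 133 and 408 CPM, inside the range of the other derivatives. Maged1 had no read in 2869 and was at 0.95 and 19.25 CPM in its derivatives. In 8 of the 49 genes a derivative of 2869 held 10 CPM or more. In 2696, 21 of 59 line-low genes had at most 3 reads, 17 also in both derivatives. In 2641 there were 5 of 39, with 3 also in the derivative, and in 2883 there was 1 of 18, Zmym6, which also had no read in its 5 derivatives (contrast -4.32 ± 0.27, adjusted p = 5.6e-05).

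Fnbp1l and Cacna1c, also line-high in 2883, varied more among its derivatives than Cdkn2a did. Fnbp1l, an actin regulator gene, was at 74.1 CPM in parental 2883 with no read in the other 3, and its 5 derivatives held 0.989, 12.2, 61.5, 67.8 and 100.4 CPM. Cacna1c, a calcium channel gene, was at 68.1 CPM in 2883 and at most 0.233 CPM in the others, with 1.24 to 54.0 CPM in the derivatives. Both were called (adjusted p = 0.0404 and 0.0319), and each call was lost when 1 derivative was left out. For Fnbp1l this was any but the etoposide-resistant one of 2883 and that of 2641 (adjusted p 0.0664 to 0.107), and the Fnbp1l call was also lost with drug terms (0.0911), with quantile normalization (0.0596) and with no filter (0.053). For Cacna1c it was either one of 2696 or 2869 and the cytarabine-, etoposide- or prednisone-resistant one of 2883 (0.056 to 0.0881), and the call was also lost with drug terms (0.104). Pde5a and Gjb2, at 45.5 and 55.9 CPM in 2883, were not called. Of the 97 line-high genes of 2883, 29 were at 10 CPM or more in all 5 derivatives and 7 in none. Among line-low genes, Cytip, an adhesion regulator gene of lymphocytes, was at 2.73 CPM in 2883 and 35.6 to 71.8 CPM in the others, with at most 0.297 CPM in its derivatives and 12.9 to 37.7 CPM in the rest (contrast -4.50 ± 0.26, adjusted p = 4.9e-05). Of 19 p53 target genes, 3 (Cdkn1a, Ccng1 and Phlda3) were called lower in derivatives of 2883 and 0 in the other lines, with a list median of -0.36. Of all genes tested, 1.37% were called lower in 2883, and their median was 0.04. The p53 list median was nearly as low in 2696, at -0.29, and was 0.31 in 2641 and 0.34 in 2869. In the parental libraries Phlda3 was at 0.420 CPM in 2883 and 4.15 to 13.6 CPM in the others and Ccng1 at 84.0 CPM and 160 to 292 CPM, while Cdkn1a, at 17.6 CPM, lay inside the range of the others (12.9 to 37.3 CPM). Trp53 itself was at 87.7 CPM in 2883 and 55.9 to 137 CPM in the others.

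T cell receptor segments differed by line. The table has 32 of them, and 10, 12, 11 and 9 were at 10 CPM or more in 2883, 2696, 2641 and 2869. Among 16 beta-chain V segments the leading one was Trbv19 in 2883 (105 CPM), Trbv31 in 2696 (133 CPM), Trbv12-1 in 2641 (117 CPM) and Trbv19 in 2869 (364 CPM). In 2696, 2641 and 2869 every derivative kept the leading segment: Trbv31 was at 191 and 229 CPM in 2696, Trbv12-1 at 133 CPM in 2641 and Trbv19 at 392 and 340 CPM in 2869. In 2883 no derivative did. Trbv19 was at 7.54 CPM in the methotrexate-resistant derivative with no read in the other 4. The leading segment was Trbv12-1 in the cytarabine-resistant derivative (208 CPM), Trbv12-2 in the etoposide-resistant (310 CPM) and vincristine-resistant (339 CPM) ones, and Trbv31 in the methotrexate-resistant (104 CPM) and prednisone-resistant (24.3 CPM) ones. Parental 2883 held Trbv12-1 at 23.2, Trbv12-2 at 2.64 and Trbv31 at 36.6 CPM. Trbv segments share sequence with each other, and how shared reads were counted is not given in the sources used here.

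**Figure D5:**
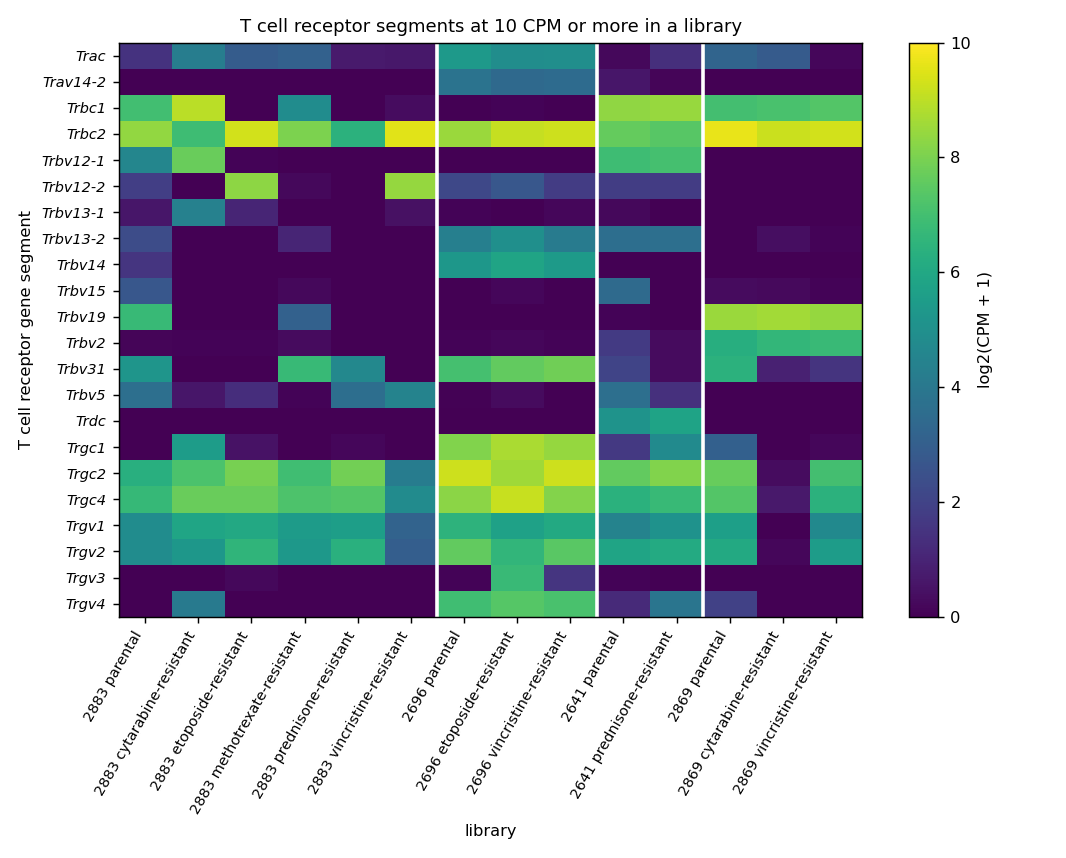
Level, as log2(CPM + 1) in colour, of the T cell receptor segments that reach 10 CPM in a library (rows), in the 14 libraries of the 4 lines (columns, parental first within each line, white lines between lines). Trbv2 marks the 3 libraries of 2869, Trbv14 those of 2696 and Trdc those of 2641, while the derivatives of 2883 differ among themselves. Trbv19 is high in the libraries of 2869 and also, at 105 CPM, in parental 2883.

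The constant region genes divided the lines further. Trdc, the delta constant gene, was at 34.2 CPM in 2641 and 54.2 CPM in its derivative, with no read in the other 3 parental libraries or the other 9 derivatives (contrast 5.78 ± 0.35, adjusted p = 0.000112). Trgc1 and its V segment Trgv4 were at 276 and 120.1 CPM in 2696, against at most 7.34 and 2.82 CPM in the others, and both were called higher in 2696. Trbc1 had no read in 2696 and was at 124 to 320 CPM in the others, whereas Trbc2 was at 197.5 CPM or more in every parental library. Trbc1 also had at most 0.254 CPM in 3 of the 5 derivatives of 2883, and it was not called. Trbv2 was at 76.4 CPM in 2869 and at most 2.27 CPM in the others, with 96.9 and 109 CPM in derivatives of 2869 and at most 0.220 CPM in the rest (contrast 6.53 ± 0.27, adjusted p = 6.2e-06). The share of all genes tested that was called was 0.364% to 2.94% per line and direction. Over 24 segments tested, 5 were called higher in 2696, 2 in 2641, 2 in 2869 and none in 2883. Called lower were 6 in 2883, 2 in 2696, 1 in 2641 and 5 in 2869.

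Beyond genes of 1 line, 178 genes split the 4 parental libraries 2 against 2 by the same gap, a pattern looked for after the values were seen. The most common split set 2696 and 2641 above 2883 and 2869, with 71 genes, Tcf3 with the widest gap and the chemokine receptor gene Ccr9 also among the widest. In the reverse direction there were 28, led by the T cell receptor segment Trbv19 and, next, the metallothionein gene Mt2. In 50 genes 2883 and 2641 stood above 2696 and 2869, led by the Ras inhibitor gene Spred1, and in 14 the reverse. The split of 2883 and 2696 against 2641 and 2869 was the least common, with 13 and 2 genes.

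Promoters of line-high genes are described by their CG content. CG dinucleotides were counted in the 250 bases before the first listed start (RefSeq, GRCm38.p6), on either strand since CG reads the same on both, for the protein-coding line genes with a promoter entry. The median was 7.5 in line-high genes of 2696 (168 of 235 with an entry), 20.5 in those of 2883 (74 of 96), 7 in those of 2641 (29 of 34) and 9 in those of 2869 (18 of 23). The median over 7724 protein-coding genes at 10 CPM or more in a parental library was 17. Among line-high genes, promoters with 5 or fewer CG made up 36.9% in 2696, 37.9% in 2641, 38.9% in 2869 and 10.8% in 2883. They made up 9.8% of those 7724 genes. Under 80% of line-high genes of 2696, 2883 and 2869 had an entry, so the comparison is void for those lines and is given as a description. The Nkg7 promoter, 1 CG in 185 bases, is shown from 2696 (plus strand, CG in capitals). It does not stand for the line-high genes of 2696, whose median was 7.5 CG in 250 bases. The starts of Cdkn2a from 2883, printed above, have 35 CG in 215 bases and 7 CG in 250 bases. Which of these starts was used is not known.
Nkg7, chr7:43436888-43437072: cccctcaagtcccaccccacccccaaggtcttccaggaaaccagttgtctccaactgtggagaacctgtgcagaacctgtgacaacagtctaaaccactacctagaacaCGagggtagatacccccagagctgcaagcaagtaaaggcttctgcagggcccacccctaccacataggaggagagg

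Genes of mitosis, replication licensing and sterol synthesis had no call in the derivatives. None of 23 mitosis and proliferation genes, 23 Mcm and replication licensing genes and 21 sterol synthesis genes was line-high, line-low or called in any line contrast, against 0.364% to 2.94% of all genes per line and direction. The absence of calls does not show that the lines were alike: the median contrast of the sterol synthesis genes was 0.38 in 2883, -0.03 in 2696, 0.52 in 2641 and -0.78 in 2869. Myc, the growth regulator downstream of Notch, was at 178 to 313.5 CPM in the 4 parental libraries. Lmo1 had no read in any of them and Tal1 was at most 0.997 CPM.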

How the data were processed

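RNA was sequenced from 16 cultures, 14 of them Mcm2cre/cre, prepared with a stranded mRNA kit per the labels' protocols. The values as deposited are FPKM, in 1 table with 13474 gene rows. Reads were trimmed with cutadapt, aligned with STAR to mm10 and handled in Partek, per the submitters' processing notes. How reads were counted, on which annotation and with what strand setting, was not stated in these sources. The FPKM divide by the whole gene span, so values were multiplied by span and rescaled to CPM. Of low values, 70.5% to 75.7% per library came out as whole reads (within 0.05), so no count model was used, and read numbers and floors are approximate and cover counting error only.

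Derivative libraries were fitted on log2(CPM + 1) with limma 3.58.1 in R 4.3.3, with 1 term per line and Benjamini-Hochberg adjustment. Genes needed at least 1 CPM in 2 of 14 libraries. The code was tested on simulated data. Genes named are up to 6 per line and direction by gap, up to 4 per list, the markers Cdkn2a, Ccnd1 and Gzma, Mcm2, and members of runs; others are named from lists by their calls. The members and lists were chosen with earlier results of these data known. All cultures share 1 batch label. Replicate numbers follow accession order and pair nothing. Some genes are not reported here.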

Additional observations from a re-analysis of the deposited data

Results flagged for a closer look

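Among 22 genes checked in the 5 derivatives of 2883, 2 had 1 library far from the other 4, and chance flags about 1 in 20 such groups. Socs2, a feedback inhibitor gene of cytokine signalling that is line-high in parental 2883, was at 10.01 CPM in the etoposide-resistant derivative and 0.405 to 1.38 CPM in the other 4. Xist was at 0.3626 CPM in the methotrexate-resistant derivative and 1140 to 3600 CPM in the other 4.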

How the results depend on the processing

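Of 103 named contrasts, 70 were called, 23 of these stayed past the threshold in every alternative run, 47 were lost in at least 1 (17 with drug terms only), and 0 reversed. Of 33 not called, 24 passed in at least 1 alternative. The alternative with 14 libraries includes the parental libraries that chose most of these genes, so passing there is not a separate check. Median-of-ratios scaling lost 0 of the 70 calls. The F test called 1049 genes, and 470 on the log2(FPKM + 1) scale, 2687 with 14 libraries and line and drug terms, and 523 with drug terms in the derivatives (replicate block). In the same order of these 3 alternatives, calls were 107 and 837 higher (block within 1.5 times) and 87, 498 and 111 lower for 2883, 220, 921 and 150 higher and 103, 577 and 103 lower for 2696, 16, 164 and 2 higher and 20, 159 and 0 lower for 2641, and 125, 560 and 39 higher and 127, 1019 and 97 lower for 2869. Quantile normalization gave 308 lower in 2883, and a pseudocount of 0.1 CPM 90 lower in 2641. Leaving out 1 derivative gave 604 to 1224 genes by the F test, 271 to 469 higher and 121 to 293 lower in 2883, 141 to 465 and 99 to 344 in 2696, 40 to 49 and 39 to 54 in 2641, and 89 to 245 and 139 to 489 in 2869. The lowest counts of 2883, 2696 and 2869 were without the vincristine-resistant derivative of 2883, the etoposide-resistant one of 2696 and the vincristine-resistant one of 2869. Line-high and line-low counts moved with the threshold. A gap of 1 gave 182 and 82 in 2883, 543 and 123 in 2696, 148 and 104 in 2641, and 104 and 223 in 2869. A gap of 3 gave 49 and 6 in 2883, 141 high in 2696, 15 and 20 in 2641, and 14 high in 2869. A minimum of 10 FPKM gave 3 and 0 in 2883, 30 and 4 in 2696, 3 and 4 in 2641, and 4 and 3 in 2869, and a minimum of 5 CPM gave 162 low in 2869. Except where a value above shows it (fewer libraries, another threshold), the cause was not tested. With 1 parental library per line, no depth gives a replicate check of that library.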
